A study of Danio rerio with 14 samples.

Results

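The proteasome subunit genes are described here from liver RNA of zebrafish measured on 14 microarrays. They were taken by name: every gene whose symbol starts with psma, psmb, psmc or psmd followed by a digit, 46 of the 21125 genes tested. Of these, 22 were core genes (psma and psmb), 8 were psmc genes and 16 were psmd genes. By known role, 8 encode the outer alpha rings, 7 the standard beta rings, 5 inducible beta subunits, 2 subunits of the psmb11 type, 7 the ATPases of the base, 4 other proteins of the base, 9 the lid and 3 chaperones that help to assemble the base. The alpha ring genes include psma8. The mammalian gene of that name belongs to the testis, but in these livers psma8 had a mean log2 level of 7.055. It correlated at 0.80 with the mean of the other members. Both values come from its brighter probe set. The other, with a mean of 3.085, correlated with it at 0.26 over the arrays. The remaining gene, psmc3ip, was taken in by its name but does not encode a subunit. It encodes a partner of meiotic recombinases. The alpha ring, beta ring, base and lid genes, 35 in all, are called constitutive subunits in what follows.

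The proteasome is the barrel-shaped protease that breaks down most short-lived and damaged proteins of a cell. Alpha rings form its gate and beta rings carry its cutting sites, which psmb5, psmb6 and psmb7 provide. A regulatory cap sits on the barrel. In its base, ATPases unfold the substrate, and in its lid and base other subunits bind ubiquitin chains and remove them. Cells make the subunits in matched amounts, and in vertebrates the transcription factor NRF1 (nfe2l1a and nfe2l1b in zebrafish) raises their genes together when proteasome capacity is short. Interferon induces replacement beta subunits, among them psmb8, psmb9 and psmb10, which take the places of psmb5, psmb6 and psmb7 and change the peptides made for antigen presentation. Liver cells use the proteasome to dispose of misfolded secretory proteins and of enzymes of lipid synthesis.

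The livers came from 3 feeding regimens, each kept up for 8 weeks in fish that were 3 months old at the start, and from 4 genotypes. The AB strain served as WT. The lines HBx(p53-) and Src(p53-) carried a regulatory protein of hepatitis B virus (HBx) or the tyrosine kinase Src under the fabp10a promoter, which is active in hepatocytes, and HBx,Src(p53-) carried both. All 3 transgenic lines were p53 mutant, so against WT a transgene and the p53 mutation cannot be told apart. Every group received powdered feed each day. Beside it, normal diet (NOR) was 0.5 mL of Artemia 1 time a day and overfeeding (DIO) was 2 mL 3 times a day. High fat fish (FAT) received the normal Artemia and, 3 times a day, 0.22 g of high fat food. There were 2 arrays for WT_NOR, 2 for HBx,Src(p53-)_NOR and 2 for HBx,Src(p53-)_DIO, but 1 for each of the other 8 groups, and HBx,Src(p53-) had no FAT array. By the legends of the study fish and arrays were equal in number, so each array was read as a single fish, and the spread between arrays holds differences between fish together with technical ones. The sex behind each array was not given in the sources used here.

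Values are log2 expression levels, so that a difference of 1 is 2-fold. Array medians were 2.1 to 2.23, and any pair of arrays correlated at 0.924 to 0.968 over the tested genes. The transgene was checked by src, which read 2.57 to 4.46 in WT, 3.49 to 4.59 in HBx(p53-), 4.94 to 6.01 in Src(p53-) and 4.23 to 5.03 in the HBx,Src(p53-) line, so that 1 array of a Src-carrying line overlapped with the other lines. Hepatocyte markers were high and level, with a mean of 12.48 to 12.80. The mean of 12 measured exocrine pancreas markers (of 14 listed) was 4.39 to 5.68 in WT, 6.57 to 8.78 in HBx(p53-), 4.74 to 6.41 in Src(p53-) and 6.39 to 7.73 in HBx,Src(p53-). The 11 leukocyte markers had means from 3.66 (WT) to 5.20 (HBx,Src(p53-)) and the 12 germ cell markers from 1.85 (WT) to 3.32 (HBx,Src(p53-)). Over the 14 arrays the mean of the proteasome genes correlated at -0.22 with the pancreas markers, 0.11 with the leukocyte markers and 0.10 with the germ cell markers. The extremes among the marker lists were -0.42 for endothelium and 0.36 for stellate and stromal cells. In bulk RNA fewer cells of a type and less RNA per cell cannot be told apart.

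The constitutive subunits had mean log2 levels from 3.34 for psmc1a to 8.46 for psmd2, the scaffold of the base that docks ubiquitin shuttles. The inducible beta subunits had means between 3.21 and 4.30. The psmb11 genes, whose mammalian counterpart belongs to the thymus, and the name-sharing psmc3ip averaged 1.50, 1.51 and 1.73, below the median of the arrays. These levels belong to different probe sets and do not rank the genes by abundance. Over the arrays a constitutive subunit had a median SD of 0.57, against 0.39 for all genes tested. The SDs are not matched for level: the median mean level was 6.09 for the constitutive subunits and 3.11 for all genes.

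The main feature of the constitutive subunits was that they were high or low together on an array. Among their 595 gene pairs the correlation over the 14 arrays had a median of 0.68 and was positive in 586. Within the lid the median was 0.74 with all 36 pairs positive, in the base ATPases 0.68, in the beta rings 0.66 and in the alpha rings 0.60. The inducible beta subunits correlated less among themselves, at 0.34. All these values share the arrays and their normalization, so the pairs are not independent.

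**Figure D1:**
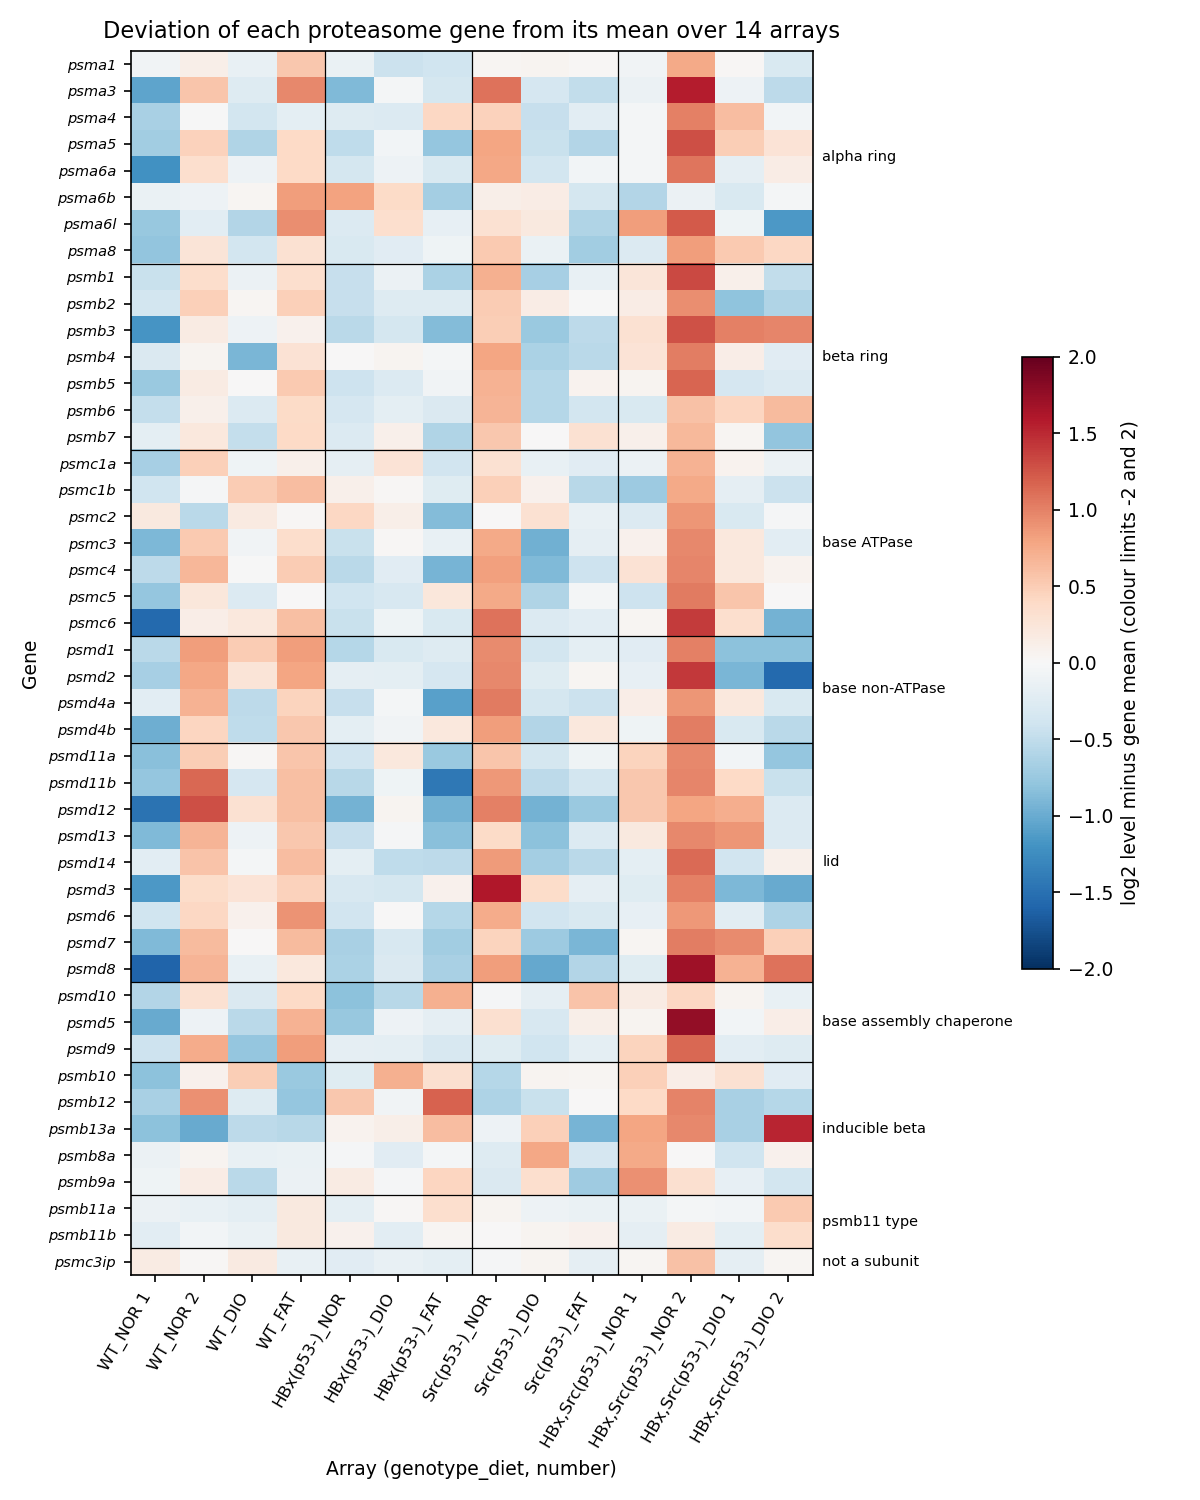
Heat map of the log2 level of each of the 46 genes minus that gene's mean over the 14 arrays, with genes in rows ordered by role and arrays in columns ordered by genotype. HBx,Src(p53-)_NOR 2 is the highest array for 28 of 35 constitutive subunits and WT_NOR 1 the lowest for 15, while the inducible beta rows follow those columns less closely.

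The genes closest to the mean of the other members were psma3 (r = 0.96), psma6a (0.93) and psmb1 (0.93), all core subunits. The alpha subunit psma3 read 5.57 and 7.17 in WT_NOR, 6.36 in WT_DIO and 7.59 in WT_FAT. In HBx(p53-) it was 5.74 (NOR), 6.59 (DIO) and 6.28 (FAT), and in Src(p53-) it was 7.71, 6.28 and 6.13. In HBx,Src(p53-) it read 6.51 and 8.19 under NOR and 6.52 and 6.10 under DIO. Its high arrays were thus HBx,Src(p53-)_NOR 2, Src(p53-)_NOR, WT_FAT and WT_NOR 2, and its lowest was WT_NOR 1, so the 2 arrays of WT_NOR lay near opposite ends.

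The alpha subunit psma6a read 3.47 and 5.02 in WT_NOR, 4.57 and 5.08 in WT_DIO and WT_FAT, 4.33, 4.58 and 4.37 in HBx(p53-) (NOR, DIO, FAT), 5.46, 4.31 and 4.62 in Src(p53-), and 4.63 and 5.75 (NOR) with 4.49 and 4.82 (DIO) in HBx,Src(p53-). The beta subunit psmb1 read 6.69 and 7.5 in WT_NOR, 7.03 and 7.47 in WT_DIO and WT_FAT, 6.69, 7.02 and 6.51 in HBx(p53-), 7.85, 6.48 and 6.99 in Src(p53-), and 7.38 and 8.47 with 7.25 and 6.65 in HBx,Src(p53-). Both had the same array at the top as psma3, and in both every Src(p53-) obesity diet array (DIO or FAT) was below the lone Src(p53-)_NOR array.

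The same 2 arrays stood at the ends for most constitutive subunits. HBx,Src(p53-)_NOR 2 was the highest of the 14 arrays for 28 of 35 and among the top 4 for 34. Src(p53-)_NOR was among the top 4 for 29, WT_FAT for 25 and WT_NOR 2 for 21. At the other end WT_NOR 1 was the lowest for 15 and among the lowest 4 for 28, followed by HBx(p53-)_NOR and HBx(p53-)_FAT, each among the lowest 4 for 21. The mean level of the 35 genes was 5.47 and 6.55 in WT_NOR, 6.05 in WT_DIO and 6.64 in WT_FAT. In HBx(p53-) it was 5.83, 6.06 and 5.72 (NOR, DIO, FAT), and in Src(p53-) it was 6.84, 5.78 and 5.87. For HBx,Src(p53-) it was 6.16 and 7.17 (NOR) and 6.24 and 5.92 (DIO). The normal diet arrays therefore spanned the whole range, from the lowest array to the highest.

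Arrays of the same genotype and diet could lie as far apart as the groups compared below. Between the 2 WT_NOR arrays, 42 of 46 proteasome genes were higher in array 2, with a median difference of 0.91, and 22 were at least 2-fold higher, against 9.72% of all genes tested. For the constitutive subunits this was 34 of 35 with a median of 1.15, and for the lid all 9 with a median of 1.52. The largest gap was that of the lid subunit psmd12, 2.77. Between the 2 HBx,Src(p53-)_NOR arrays, 43 of 46 genes were higher in array 2 (median 0.85), all 35 constitutive subunits among them, and 19 were at least 2-fold higher, against 6.2% of all genes. The 3 that were lower there were the inducible psmb8a, psmb9a and psmb10. Between the 2 HBx,Src(p53-)_DIO arrays 16 of 46 were higher in array 2 (median -0.20), and 4 were at least 2-fold lower, against 3.94% of all genes. Those 4 were psmc6, psmd13, psma6l and psmd12. After genotype and diet (normal or obesity) were fitted, the mean of the 46 genes had a residual SD of 0.40 between arrays. This fit pools DIO and FAT, so in WT, HBx(p53-) and Src(p53-) the SD also holds the difference between those diets.

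**Figure D2:**
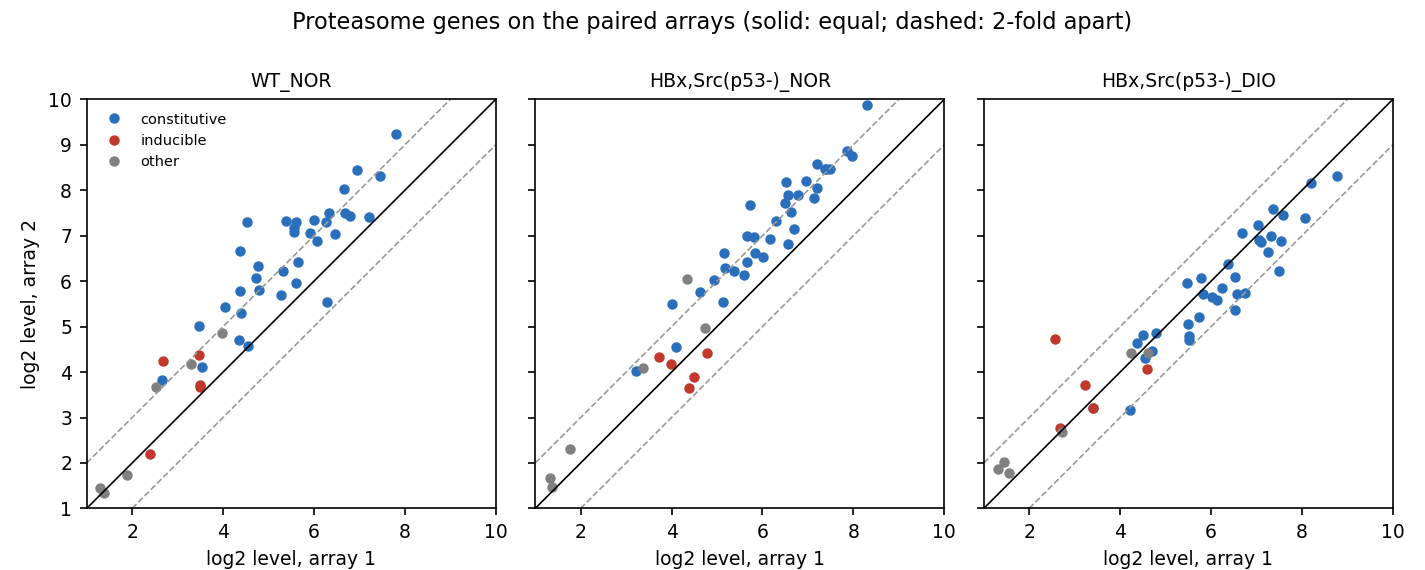
Log2 level of each proteasome gene on array 2 (vertical axis) against array 1 (horizontal axis) of the 3 groups with 2 arrays, coloured as constitutive, inducible or other genes, with a solid line at equality and dashed lines 2-fold apart. Constitutive subunits lie above equality in 34 of 35 cases in WT_NOR and in 35 of 35 in HBx,Src(p53-)_NOR. In HBx,Src(p53-)_DIO 9 of 35 do, and their median difference is -0.33.

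The constitutive core, the ATPases and the lid shared their highest and their lowest array but not the amplitude. The other base proteins, 4 genes, had the same highest array, but their lowest was HBx,Src(p53-)_DIO 2. On the 2 overfed arrays of that line their mean deviation was -0.46 and -0.81. It was 0.10 and -0.13 for the constitutive core and 0.23 and -0.19 for the lid. Those arrays were the 2 lowest for psmd1 and psmd2, but not for psmd4a and psmd4b. The lid gene psmd3 was low there as well, at 5.83 and 5.72 against its mean of 6.73. From its lowest to its highest array the class mean ran over 1.58 for the constitutive core, 1.62 for the base ATPases, 1.89 for the other base proteins and 1.96 for the lid. The lid gene with the widest range, psmd8, read 4.37 and 6.66 in WT_NOR, 5.82 and 6.19 in WT_DIO and WT_FAT, 5.34, 5.68 and 5.32 in HBx(p53-), 6.81, 4.95 and 5.40 in Src(p53-), and 5.74 and 7.67 (NOR) with 6.68 and 7.07 (DIO) in HBx,Src(p53-). Its levels in HBx,Src(p53-) overlapped between the diets, and its WT_NOR arrays were the lowest array and one of the higher ones. The mean deviation of the base (without ATPases) and lid minus that of the core was 0.50 on WT_NOR 2 and -0.26 on HBx(p53-)_FAT, the extremes of the 14 arrays, and -0.21 on WT_NOR 1. The ATPases minus the core differed most on WT_DIO, by 0.35.

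**Figure D3:**
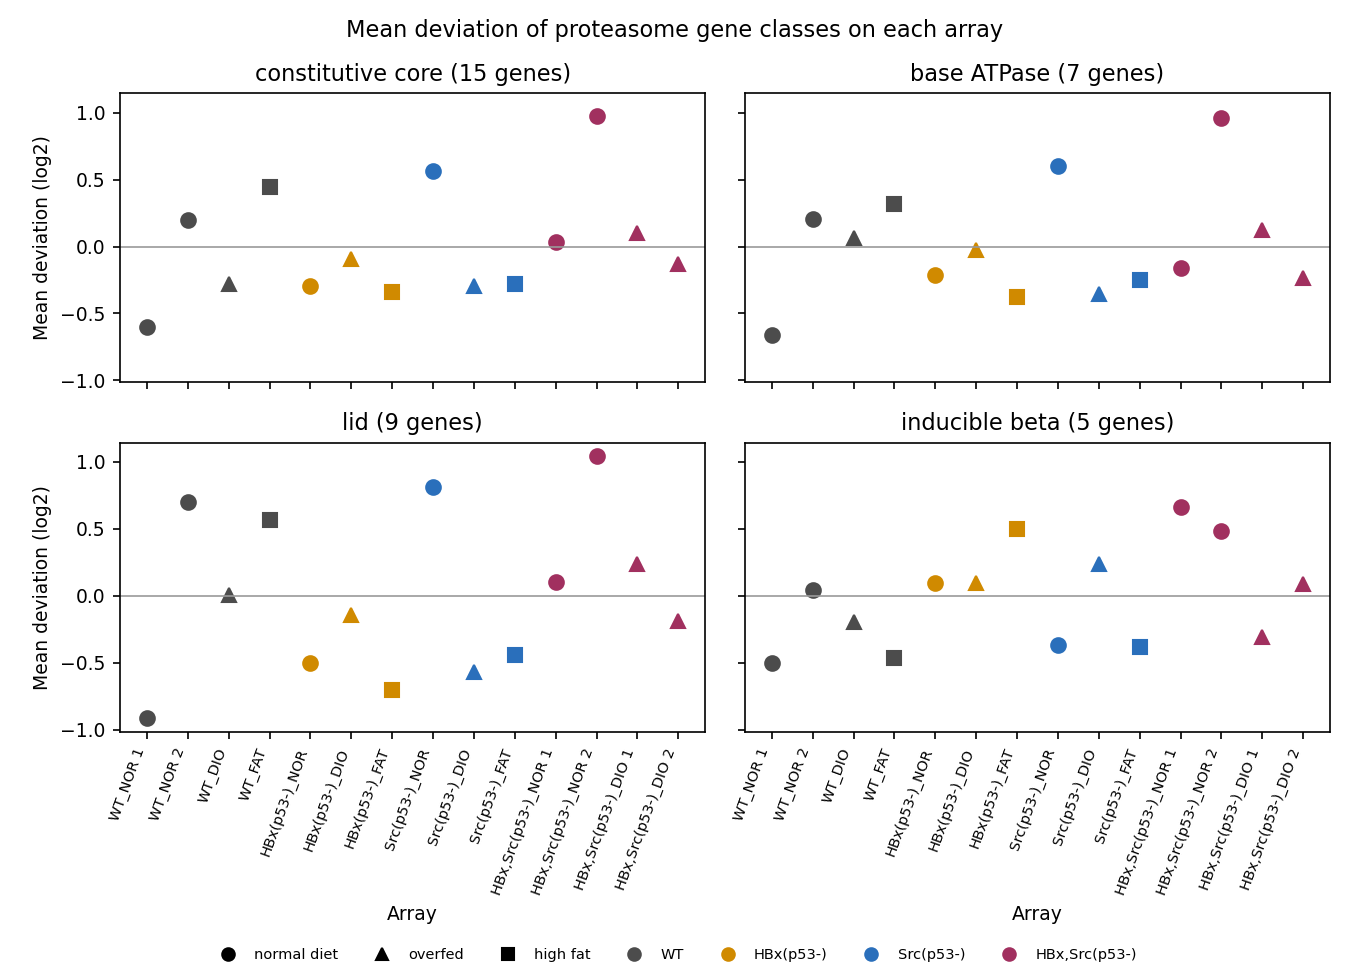
Mean deviation, in log2, of the genes of 4 classes from their own means (vertical axis) on each of the 14 arrays (horizontal axis), with colour for genotype and shape for diet. Core, ATPase and lid panels share their high arrays (HBx,Src(p53-)_NOR 2 and Src(p53-)_NOR) and their low array (WT_NOR 1), and the panel of the 5 inducible beta genes has HBx,Src(p53-)_NOR 1 as its highest array.

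The catalytic subunits followed the other constitutive genes to different degrees. The subunit with the chymotrypsin-like site, psmb5, read 4.39 and 5.30 in WT_NOR, 5.14 and 5.65 in WT_DIO and WT_FAT, 4.71, 4.85 and 5.06 in HBx(p53-), 5.82, 4.56 and 5.21 in Src(p53-), and 5.18 and 6.29 (NOR) with 4.79 and 4.86 (DIO) in HBx,Src(p53-). In both Src-carrying lines all normal diet arrays were above all obesity diet arrays, in HBx(p53-) the single normal array was below both, and in WT the arrays overlapped. The subunit with the caspase-like site, psmb6, read 6.46 and 7.04 in WT_NOR, 6.67 and 7.32 in WT_DIO and WT_FAT, 6.60, 6.74 and 6.66 in HBx(p53-), 7.62, 6.37 and 6.58 in Src(p53-), and 6.63 and 7.52 (NOR) with 7.37 and 7.58 (DIO) in HBx,Src(p53-). Here the HBx,Src(p53-) overfed arrays were among the higher ones and overlapped with the normal diet arrays. The subunit with the trypsin-like site, psmb7, read 5.29 and 5.69 in WT_NOR, 5.01 and 5.88 in WT_DIO and WT_FAT, 5.20, 5.59 and 4.88 in HBx(p53-), 6.03, 5.48 and 5.78 in Src(p53-), and 5.59 and 6.13 (NOR) with 5.52 and 4.70 (DIO) in HBx,Src(p53-). Its normal diet arrays were above its obesity diet arrays in both Src-carrying lines, with gaps smaller than the distance between the 2 HBx,Src(p53-)_DIO arrays.

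The inducible subunits followed this profile weakly at most. The correlation with the mean of the other members was -0.07 for psmb8a and -0.02 for psmb10, the 2 lowest of all members, and 0.03 for psmb11a, the next. For psmb13a, psmb9a and psmb12 it was 0.11, 0.13 and 0.20. Low values were not limited to the inducible genes: the alpha subunit psma6b had 0.07 and the ATPase psmc2 0.22. The replacement of psmb5, psmb8a, read 3.5 and 3.67 in WT_NOR, 3.47 and 3.5 in WT_DIO and WT_FAT, 3.60, 3.39 and 3.59 in HBx(p53-), 3.38, 4.40 and 3.29 in Src(p53-), and 4.39 and 3.64 (NOR) with 3.23 and 3.72 (DIO) in HBx,Src(p53-). Only Src(p53-)_DIO and HBx,Src(p53-)_NOR 1 stood above the rest. The replacement of psmb6, psmb9a, read 3.49 and 3.73 in WT_NOR, 3.03 and 3.45 in WT_DIO and WT_FAT, 3.73, 3.54 and 4.0 in HBx(p53-), 3.29, 3.91 and 2.86 in Src(p53-), and 4.49 and 3.89 (NOR) with 3.40 and 3.20 (DIO) in HBx,Src(p53-). The replacement of psmb7, psmb10, read 3.48 and 4.38 in WT_NOR, 4.78 and 3.55 in WT_DIO and WT_FAT, 4.05, 5.0 and 4.61 in HBx(p53-), 3.73, 4.34 and 4.33 in Src(p53-), and 4.77 and 4.42 (NOR) with 4.6 and 4.07 (DIO) in HBx,Src(p53-). For psmb9a the HBx,Src(p53-) normal diet arrays were above its overfed arrays, and for psmb10 they overlapped.

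Of the other inducible genes, which fish carry beside these 3, psmb12 ranged from 2.57 (WT_FAT) to 4.52 (HBx(p53-)_FAT) and psmb13a from 2.21 (WT_NOR 2) to 4.74 (HBx,Src(p53-)_DIO 2). The probe sets of psmb8a and psmb13a are less certain, since a further probe set named both genes and was left unnamed. The other probe sets of psmb8a alone, with means of 1.84 and 2.16, correlated at 0.65 and 0.003 with the one used. The thymus-type gene psmb11a stayed between 1.31 and 2.02, with the 4 WT arrays at 1.31 to 1.70 and HBx,Src(p53-)_DIO 2 highest. The mean of the 5 inducible genes was 3.11 and 3.65 in WT_NOR, 3.41 in WT_DIO, 3.15 in WT_FAT, 3.71, 3.71 and 4.11 in HBx(p53-), 3.24, 3.85 and 3.22 in Src(p53-), and 4.28 and 4.09 (NOR) with 3.30 and 3.70 (DIO) in HBx,Src(p53-). The HBx,Src(p53-)_NOR arrays and HBx(p53-)_FAT were highest, and WT_NOR 1 and WT_FAT lowest. The leukocyte marker mean was likewise higher on the HBx,Src(p53-)_NOR arrays (5.20 and 4.81) than on WT_NOR (3.66 and 3.78). On HBx,Src(p53-)_DIO it was 4.72 and 4.79, although the inducible mean was lower there than under NOR. The part of leukocytes in these levels was not tested.

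**Figure D4:**
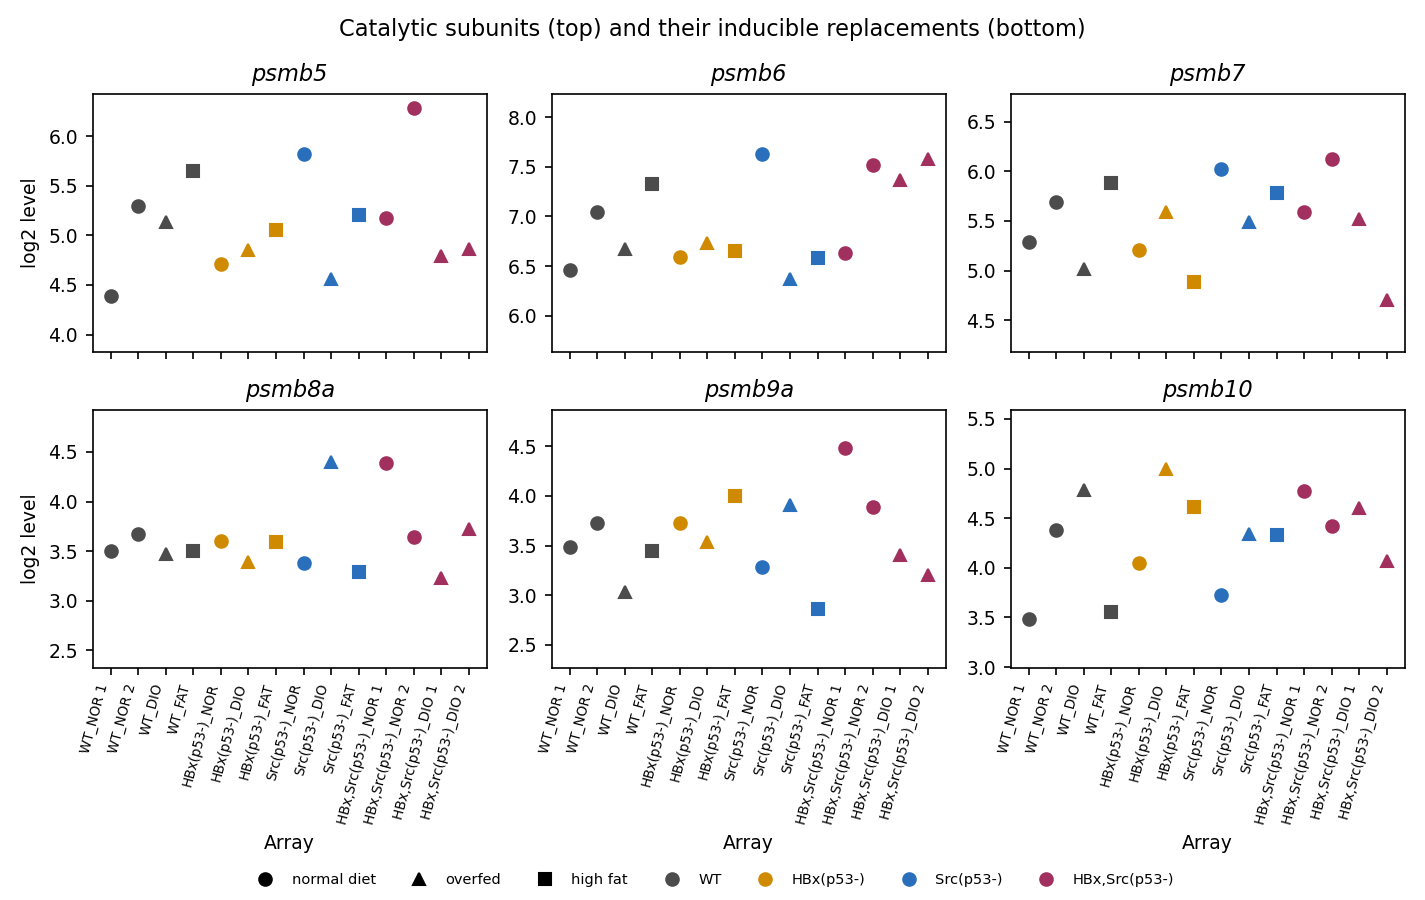
Log2 level of 3 catalytic subunits (top row) and of the inducible subunits that replace each of them (bottom row) on the 14 arrays, with colour for genotype and shape for diet and the same span in log2 units on every vertical axis. For psmb5 HBx,Src(p53-)_NOR 2 is highest at 6.29, whereas psmb8a is highest on Src(p53-)_DIO and HBx,Src(p53-)_NOR 1, at 4.40 and 4.39.

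What an obesity diet (DIO and FAT arrays together, as the study pooled them) does in each genotype was asked with limma over all 14 arrays. In WT fish, 37 of 46 proteasome genes were higher on the obesity diet arrays, with a median of 0.24 against 0.02 for all genes, of which 48.1% were lower. The lone gene at least 2-fold higher was psmc6, an ATPase (2.47% of all genes were). For 4 members both obesity diet arrays were above both normal ones, which held for 15.55% of all genes. For 2 members both were below, against 13.2% of all genes. No member was called at an adjusted p under 0.05, as was true of all genes (0.0%), and 0 members had an unadjusted p under 0.05, which 4.34% of all genes had. The genes with the largest moderated t in their class were psma6b (+0.55 ± 0.40) and psmb5 (+0.55 ± 0.43) in the core, psmc6 (+1.12 ± 0.63) and psmc1b (+0.77 ± 0.44) among the ATPases, and the lid subunits psmd3 (+0.77 ± 0.52) and psmd6 (+0.49 ± 0.44), each with an adjusted p of 0.999 in limma. The error after ± is the standard error of the log2 difference. The median turned to -0.23 without WT_NOR 1, was 0.68 without WT_NOR 2 and 0.55 without WT_DIO, and was -0.0002 without WT_FAT, where 23 genes were higher and 23 lower.

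In HBx(p53-) fish, 32 of 46 genes were higher on the obesity diet arrays (median 0.10, and 48.9% of all genes were lower). The constitutive mean, however, lay above the normal diet array on the DIO array only. Both obesity diet arrays were above the normal one for 19 members, and for 32.7% of all genes. Both were below it for 9 members, and for 32.9% of all genes. No member was called, as no gene was (0.0%), and 0 members had an unadjusted p under 0.05 (3.74% of all genes). The base assembly chaperone psmd10 was +0.91 ± 0.58 and psmd5 +0.61 ± 0.71. The core genes were psma6b, -0.95 ± 0.49, and the inducible psmb10, +0.75 ± 0.54, and the ATPases psmc2 (-0.79 ± 0.56) and psmc3 (+0.38 ± 0.60) differed in direction. All 6 had an adjusted p of 1.0 in limma. The median became -0.0041 without the HBx(p53-)_DIO array, where 23 genes were higher, and 0.21 without the HBx(p53-)_FAT array.

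In Src(p53-) fish, 38 of 46 genes were lower on the 2 obesity diet arrays than on the lone normal diet array, with a median of -0.94, while 48.1% of all genes were lower. At least 2-fold lower were 21 members, against 4.26% of all genes. Both obesity diet arrays were below the normal one for 34 members, and for 33.9% of all genes. By class the median was -1.31 in the lid (9 of 9 lower), -1.15 in the base without ATPases (4 of 4), -1.11 in the beta rings (7 of 7), -1.09 in the ATPases (6 of 7) and -0.87 in the alpha rings (7 of 8). The inducible genes were higher in 4 of 5, with a median of 0.41, which rested on the DIO array: there 5 of 5 were higher (median 0.61), and on the FAT array 2 of 5 (median -0.09). The base assembly chaperones had a median of -0.06. No member was called, nor was any gene (0.0%), and 6 members had an unadjusted p under 0.05, against 5.06% of all genes.

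The named genes in Src(p53-) were psmb4 (-1.38 ± 0.49, limma adjusted p = 0.919), the catalytic psmb6 (-1.15 ± 0.44, 0.95), the ATPases psmc4 (-1.46 ± 0.54, 0.926) and psmc3 (-1.32 ± 0.60, 0.974), the deubiquitinase of the lid psmd14 (-1.46 ± 0.55, 0.95) and the ubiquitin receptor psmd4a (-1.43 ± 0.60, 0.974). On the 3 arrays psmd14 read 6.70 under NOR, 5.18 under DIO and 5.31 under FAT, and psmc4 read 7.66, 5.97 and 6.43. For psmc4 these obesity diet arrays lay within the range of HBx(p53-), which read 6.31, 6.63 and 5.92, whereas for psmd14 they were the 2 lowest of all 14. Src(p53-)_DIO was the lowest array for 4 of the 35 constitutive subunits and Src(p53-)_FAT for 1. The difference rests on the single Src(p53-)_NOR array, which had no replicate, so its error was borrowed from the other groups. The pancreas marker mean was 4.74 on that array and 6.41 and 5.92 on the obesity diet ones, where 12 of 12 markers were higher with a median of 1.51, and with that mean as a covariate the median of the proteasome genes was -0.77 with 41 of 46 lower.

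In HBx,Src(p53-) fish, 38 of 46 genes were lower on the 2 overfed arrays than on the 2 normal diet arrays, with a median of -0.53, while 55.1% of all genes were lower. At least 2-fold lower were 10 members, against 5.83% of all genes. For 18 members both overfed arrays were below both normal ones, which held for 24.7% of all genes. Limma called none of the members and 0.0142% of all genes, and 8 members had an unadjusted p under 0.05, against 10.7% of all genes. The scaffold psmd2 was -1.87 ± 0.57 (adjusted p = 0.303), the lid subunit psmd3 -1.33 ± 0.52 (0.403), the core genes psma6l -1.65 ± 0.55 (0.333) and psmb2 -1.24 ± 0.35 (0.279), and the ATPases psmc6 -1.02 ± 0.63 (0.626) and psmc4 -0.50 ± 0.44 (0.784). Without HBx,Src(p53-)_NOR 2 the median was -0.19 with 29 of 46 lower, and without HBx,Src(p53-)_NOR 1 it was -0.95 with 45 lower.

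The levels behind these names show where the lines differ. The beta subunit psmb2 read 7.46 and 8.31 in WT_NOR, 7.87 and 8.31 in WT_DIO and WT_FAT, 7.37, 7.57 and 7.58 in HBx(p53-), 8.33, 7.98 and 7.82 in Src(p53-), and 7.97 and 8.76 (NOR) with 7.03 and 7.23 (DIO) in HBx,Src(p53-). The scaffold psmd2 read 7.80 and 9.23 in WT_NOR, 8.72 and 9.25 in WT_DIO and WT_FAT, 8.28, 8.26 and 8.11 in HBx(p53-), 9.42, 8.22 and 8.49 in Src(p53-), and 8.30 and 9.88 (NOR) with 7.54 and 6.90 (DIO) in HBx,Src(p53-). For both genes the HBx,Src(p53-) overfed arrays were the 2 lowest of all 14. Not all subunits did this: on the same overfed arrays psmb3 read 8.20 and 8.16, above all but 1 of the other 12 arrays, and the lid subunits psmd7 (8.78 and 8.31) and psmd8 were also among the higher ones.

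In HBx,Src(p53-) the inducible genes were lower in 5 of 5 (median -0.54), and on each of the 2 overfed arrays 4 of 5 were lower. There psmb12 was -1.3 ± 0.55 and psmb9a -0.89 ± 0.38 (limma adjusted p = 0.435 and 0.443). The difference from the Src(p53-) line, where the direction differed between the DIO and FAT arrays, was not tested.

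**Figure D5:**
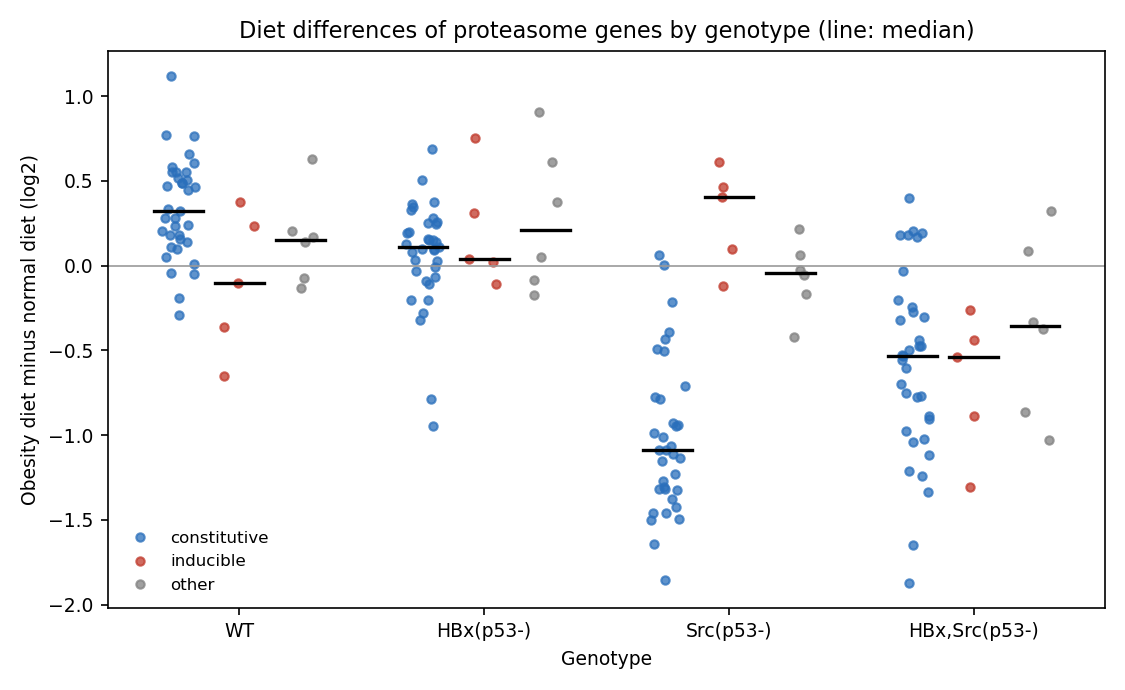
Log2 difference between obesity and normal diet from limma (vertical axis) for each proteasome gene in 4 genotypes (horizontal axis), coloured as constitutive, inducible or other genes, with black lines at the medians. Constitutive medians are 0.32 in WT, 0.11 in HBx(p53-), -1.09 in Src(p53-) and -0.53 in the line with both transgenes.

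Whether the diet difference itself differed between lines with and without the Src transgene was asked with a contrast. It was the mean diet difference of Src(p53-) and HBx,Src(p53-) minus that of WT and HBx(p53-). Both Src-carrying lines were p53 mutant and WT was not, so Src and p53 status are mixed in it. HBx,Src(p53-) entered with overfed arrays only, the other lines with DIO and FAT. The contrast was below 0 for 42 of 46 members, with a median of -0.82, and for 52.9% of all genes. At least 2-fold lower were 18 members, against 5.66% of all genes. All 16 psmd genes were below 0, with a median of -1.14, and the exceptions were psma6b, psmb8a, psmb11b and psmc2. No member and no gene was called (0.0%), and 11 members had an unadjusted p under 0.05, against 7.73% of all genes. The named genes were psmd3 (-1.89 ± 0.59) and psmd1 (-1.62 ± 0.54), both with a limma adjusted p of 0.532, the ATPases psmc6 (-1.86 ± 0.70, 0.571) and psmc3 (-1.28 ± 0.55, 0.624), and the core genes psmb5 (-1.32 ± 0.49, 0.558) and psmb2 (-1.04 ± 0.39, 0.574). For 6 members every obesity diet array of the Src-carrying lines was below, and every one of WT and HBx(p53-) above, the normal diet mean of its genotype, which held for 1.82% of all genes. The median was -0.55 without WT_NOR 1 and -1.1 without HBx,Src(p53-)_NOR 1, and it was -0.58 without HBx,Src(p53-)_NOR 2.

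The ATPase psmc6 shows the pattern and its limit. It read 5.61 and 7.31 in WT_NOR, 7.39 and 7.77 in WT_DIO and WT_FAT, 6.72, 7.08 and 6.87 in HBx(p53-), 8.25, 6.90 and 6.96 in Src(p53-), and 7.20 and 8.57 (NOR) with 7.51 and 6.22 (DIO) in HBx,Src(p53-). Relative to the mean of their normal diet arrays, the obesity diet arrays of WT and HBx(p53-) lay 0.92, 1.31, 0.36 and 0.14 higher, and those of the Src-carrying lines differed by -1.36, -1.29, -0.38 and -1.67. The 2 WT_NOR arrays, however, were 1.69 apart, and HBx,Src(p53-)_DIO 1 lay between the 2 normal diet arrays of its line.

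Under normal diet each transgenic line was compared with WT. The 3 comparisons share the 2 WT_NOR arrays, so they are not independent of each other, and HBx(p53-) and Src(p53-) enter with 1 array each. In HBx(p53-) 30 of 46 members were lower than in WT, with a median of -0.16 (51.9% of all genes were lower), while the 5 inducible genes were higher, with a median of 0.12. No member and no gene was called (0.0%), and 0 members had an unadjusted p under 0.05, against 6.05% of all genes. The named genes were psma6b (+0.91 ± 0.49, limma adjusted p = 0.886), psmb13a (+0.98 ± 0.79, 0.967), psmc4 (-0.61 ± 0.54, 0.974), psmc2 (+0.59 ± 0.56, 0.981), psmd1 (-0.72 ± 0.59, 0.967) and psmd4a (-0.70 ± 0.60, 0.973). The median was -0.65 without WT_NOR 1 and turned to 0.30 without WT_NOR 2. With the pancreas marker mean as a covariate it was -0.049.

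In Src(p53-) under normal diet 40 of 46 members were higher than in WT, with a median of 0.75 (49.9% of all genes were lower), and all 35 constitutive subunits were, with a median of 0.79. Lower were 4 of the 5 inducible genes, psmd9 and psmc3ip. At least 2-fold higher were 9 members, against 5.6% of all genes. Limma called 0.00947% of all genes and no member, and 2 members, psmd3 and psmc6, had an unadjusted p under 0.05, against 5.74% of all genes. The lid subunit psmd3 was +1.99 ± 0.64 (adjusted p = 0.744), the ubiquitin receptor psmd4b +1.1 ± 0.68 (0.932), the ATPases psmc6 +1.79 ± 0.77 (0.871) and psmc5 +1.04 ± 0.63 (0.927), and the core genes psma6a +1.21 ± 0.63 (0.897) and psmb6 +0.87 ± 0.44 (0.882). The single psmd3 value of 8.32 on Src(p53-)_NOR was its highest of the 14 arrays, against 5.57 and 7.09 in WT_NOR. The median was 0.25 without WT_NOR 1 and 1.16 without WT_NOR 2.

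In HBx,Src(p53-) under normal diet 45 of 46 members were higher than in WT, psma6b excepted, with a median of 0.59, and 43.5% of all genes were lower. All 5 inducible genes were higher, with a median of 0.58, beside 34 of 35 constitutive subunits with a median of 0.66. At least 2-fold higher were 6 members, against 6.57% of all genes. No member and 0.00947% of all genes were called, and 5 members had an unadjusted p under 0.05, against 8.48% of all genes. Those 5 were psmb3 (+1.3 ± 0.45, limma adjusted p = 0.468), psma6l (+1.52 ± 0.55, 0.484), psmb13a (+1.79 ± 0.65, 0.484), psmd5 (+1.46 ± 0.58, 0.537) and psmc6 (+1.43 ± 0.63, 0.583), and the other named genes were psmc3 (+0.71 ± 0.49, 0.74) and the lid subunit psmd11a (+0.87 ± 0.50, 0.676). The psmd5 value fell to 0.60 without HBx,Src(p53-)_NOR 2, and to 0.53 under 1 of the alternatives that keep all arrays. Other probe sets of psmd5 correlated at -0.0072 and 0.61 with the one used. Without WT_NOR 1 the median of the members was 0.061 and without WT_NOR 2 it was 1.15. Leaving out HBx,Src(p53-)_NOR 2 or 1 gave 0.20 or 1.03. After quantile normalization of the tested genes it was 0.35. Of the leukocyte markers 10 of 11 were higher in the same comparison, with a median of 1.3, and of the pancreas markers 12 of 12, with a median of 1.72. With the pancreas marker mean as a covariate the median of the proteasome genes was 0.66, and the part of leukocytes was not tested.

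How the feeding methods differed over genotypes was asked with an additive model of genotype and diet. Against normal diet, overfeeding went with lower values for 40 of 46 members, with a median of -0.29, and for 53.6% of all genes, and all 16 psmd genes were lower. No member and no gene was called (0.0%), and 2 members, psmb4 and the chaperone psmd9, had an unadjusted p under 0.05, against 6.2% of all genes. The values were -0.69 ± 0.26 for psmb4 (limma adjusted p = 0.763), -0.71 ± 0.34 for psmb12 (0.794), -0.43 ± 0.31 for psmc4 (0.844), -0.38 ± 0.34 for psmc3 (0.866), -0.62 ± 0.28 for psmd9 (0.794) and -0.85 ± 0.43 for psmd2 (0.794). Without HBx,Src(p53-)_NOR 2 the median was -0.12, without Src(p53-)_NOR -0.15, without WT_NOR 1 -0.47 and without HBx(p53-)_DIO -0.46, and with the pancreas covariate it was -0.17.

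High fat against overfed arrays gave higher values for 33 of 46 members, with a median of 0.22 (46.5% of all genes were lower). No member and no gene was called (0.0%), and psmd10 alone of the members had an unadjusted p under 0.05, against 6.66% of all genes. Its value was +0.96 ± 0.25 (limma adjusted p = 0.675), with levels of 4.97, 5.28 and 5.13 on the FAT arrays of WT, HBx(p53-) and Src(p53-) against 4.28, 4.02 and 4.39 on their DIO arrays, so that the FAT array was higher in 3 of 3 genotypes. The others were psmd4b (+0.80 ± 0.40, 0.771), psmb5 (+0.60 ± 0.38, 0.832), psmb12 (+0.60 ± 0.43, 0.863), psmc2 (-0.40 ± 0.35, 0.887) and psmc5 (+0.39 ± 0.40, 0.908). Of these, psmd4b, psmb5 and psmc5 were also higher on the FAT array in 3 of 3 genotypes. The ATPase psmc2, whose value was negative, was lower there in 3 of 3, and psmb12 differed in direction between genotypes. All of them, psmd10 included, were picked by their t in this comparison, so such agreement was largely fixed in advance. The share of all genes with it was not counted. The median of the members turned to -0.086 without WT_FAT. It was 0.14 without Src(p53-)_DIO or HBx,Src(p53-)_NOR 2, 0.37 without HBx(p53-)_DIO, 0.39 without Src(p53-)_FAT and 0.48 with the pancreas covariate. HBx,Src(p53-) had no FAT array and entered only through its other arrays.

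Genes that work with the proteasome were described from lists of its activators, assembly factors, associated receptors, ubiquitin supply, chaperones and transcription. The proteasome transcription list holds nfe2l1a, nfe2l1b, nfe2l2a, nfe2l2b, ddi2, ngly1 and 4 zfand genes, so only part of it concerns NRF1. No gene of these lists was called in any of the 10 comparisons, and their lowest adjusted p in limma was 0.183. Among the 5 associated receptors and deubiquitinases 4 were lower on the Src(p53-) obesity diet arrays, with a median of -1.26. The assembly factors had a median of -0.42 there (3 of 5 lower) and the activators and inhibitor -0.38 (5 of 6). For the proteasome transcription list it was -0.05 (5 of 10) and for the antigen presentation and interferon genes 0.11 (5 of 13). The ubiquitin supply and shuttling genes were lower in 10 of 14 (median -0.12), the cytosolic chaperones in 5 of 14 (median 0.11) and the CCT chaperonin genes in 6 of 8 (median -0.16). In HBx,Src(p53-) the medians were -0.38 for the ubiquitin supply genes (12 of 14 lower), -0.33 for antigen presentation (9 of 13) and -0.30 for the cytosolic chaperones (12 of 14). The activators had a median of -0.21 (4 of 6) and the proteasome transcription list -0.11 (5 of 10). The receptors, assembly factors and CCT genes had medians of -0.023, -0.014 and 0.00053 there. The transcription list hides differences among its genes. In Src(p53-) (NOR, DIO, FAT) nfe2l1b read 5.42, 3.93 and 4.95, but nfe2l1a read 4.55, 5.76 and 5.55. In HBx,Src(p53-) nfe2l1b read 6.47 and 4.99 (NOR) with 4.04 and 3.54 (DIO). There nfe2l1a overlapped between the diets, at 5.46 and 5.70 with 5.90 and 5.42. On the obesity diet arrays of both lines ddi2 was lower.

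Over the arrays the listed gene closest to the mean of the proteasome genes was usp14, a deubiquitinase of the cap (r = 0.89 over 14 arrays). It read 4.84 and 6.55 in WT_NOR, 5.35 and 6.21 in WT_DIO and WT_FAT, 4.72, 5.66 and 4.07 in HBx(p53-), 6.40, 4.67 and 5.47 in Src(p53-), and 5.63 and 7.11 (NOR) with 5.53 and 4.81 (DIO) in HBx,Src(p53-), so its highest array was again HBx,Src(p53-)_NOR 2. It was followed by vcp, the segregase that extracts ubiquitinated proteins (0.86), the core maturation factor pomp (0.82), the chaperone hspa4b (0.81) and the activator subunit psme2 (0.78). For nfe2l1b the value was 0.53 and for nfe2l1a 0.22, and for ddi2, the protease that activates NRF1, 0.64.

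Outside the family 172 of 21079 genes had a correlation of at least 0.8 with the mean of the members over the 14 arrays, and the median of all was 0.03. The 10 closest were arpc1a (0.95), a subunit of the Arp2/3 complex, nae1 (0.93), of the NEDD8-activating enzyme, si:ch211-107o10.3 (0.93), sae1 (0.92), of the SUMO-activating enzyme, the cullin exchange factor cand1 (0.92), acat2 (0.91), an acetyl-CoA acetyltransferase, glrx3 (0.91), copb2 (0.91), of the COPI coat, si:rp71-45k5.4 (0.91) and zgc:162171 (0.90). The closest, arpc1a, read 6.04 and 7.46 in WT_NOR, 6.46 and 7.62 in WT_DIO and WT_FAT, 6.06, 6.79 and 5.73 in HBx(p53-), 7.64, 6.18 and 6.42 in Src(p53-), and 7.02 and 8.20 (NOR) with 6.90 and 6.43 (DIO) in HBx,Src(p53-). These correlations rest on the same few high and low arrays as those among the subunits.

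A gene's value came from the probe set with its highest mean. For the 20 members with several probe sets, 28 others could be set beside the chosen ones. Their correlation with the chosen probe set over the 14 arrays had a median of 0.65, was at least 0.8 for 10 and under 0.2 for 5, and 12 of them had a mean level under 3. For psmb13a 1 of the others held the same values as the chosen one. For psmd2 and psmd1 it was 0.98 and 0.96, and for psmd12 the other probe set, with a mean of 1.50, gave -0.29. The alpha subunit genes psma2a and psma2b shared a probe set and are not among the 46. That probe set read 3.70 and 4.32 in WT_NOR, 3.08 and 4.48 in WT_DIO and WT_FAT, 4.55, 4.34 and 4.07 in HBx(p53-), 4.6, 5.22 and 4.03 in Src(p53-), and 4.64 and 6.13 (NOR) with 5.54 and 5.06 (DIO) in HBx,Src(p53-), with its highest value on HBx,Src(p53-)_NOR 2.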

How the data were processed

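Total liver RNA was hybridised to ZebGene 1.1 ST arrays. The deposited values are log2 levels per probe set, which the authors made with RMA in the oligo package (versions not given in the sources used here). Since RMA brings the arrays to nearly 1 distribution, global shifts in RNA content are lost, and differences of dim probe sets are understated. No scan date or plate was given, so no batch was tested.

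Of 75212 probe sets, the platform annotation gave 30358 a single symbol, 1015 several and 43839 none. Symbols of 19501 genes were matched to the RefSeq annotation of GRCz12tu and 1624 kept the annotation symbol. Each gene was represented by its probe set of highest mean. No filter on low values was applied.

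Differences came from limma 3.58.1 in R 4.3.3 (lmFit, contrasts.fit, eBayes) over all 21125 genes, with Benjamini-Hochberg adjustment and calls at 0.05. Genotype comparisons used 8 cell means (genotype by normal or obesity diet, 6 residual degrees of freedom), and feeding methods an additive model (8 degrees of freedom). Groups of 1 array took their spread from the rest. With 8 cell means that spread also holds DIO against FAT differences in WT, HBx(p53-) and Src(p53-). With 14 arrays the precision is limited. Named genes were the 2 members with the largest absolute moderated t per class (core, psmc, psmd) in each comparison, without psmc3ip. Arrays were given in full for the catalytic subunits and for the inducible psmb8a, psmb9a and psmb10. So were the highest member of each class by mean and those most correlated with the rest. The inducible psmb12 and psmb13a, and psmb11a from the least correlated members, were given as ranges. Other members named were chosen after their values were seen. The members and lists were chosen with earlier results of these data known. The limma step was tested on simulated data. Alternatives were the mean of all probe sets, quantile normalization, removal of the dimmest genes, an intensity trend, a replicate block and a pancreas marker covariate. Others were 11 cell means, overfed arrays only, and leaving out each array that a comparison could spare.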

Additional observations from a re-analysis of the deposited data

Results flagged for a closer look

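Relative to the mean of the normal diet arrays of the same genotype, the mean of all 46 proteasome genes lay higher on every obesity diet array of WT (0.01 and 0.52) and HBx(p53-) (0.20 and 0.02) and lower on every one of Src(p53-) (-0.77 and -0.74) and HBx,Src(p53-) (-0.48 and -0.65). The difference between the pairs of lines was -0.85 for this mean, which was not tested as a mean. The directions in WT_DIO and HBx(p53-)_FAT were within 0.02 of no difference. For the mean of the 35 constitutive subunits HBx(p53-)_FAT was on the other side, at -0.11. The WT directions also depend on WT_NOR 1. The mean level of the 46 genes was 4.81 on WT_NOR 1 and 5.755 on WT_NOR 2. On WT_DIO it was 5.30, between these 2, and on WT_FAT 5.80. Without WT_NOR 1 the median diet difference of the members in WT was -0.23.

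Of the 46 members, 6 had every obesity diet array of the Src-carrying lines below and every one of WT and HBx(p53-) above the normal diet mean, as had 1.82% of all genes tested. Among the named genes these were psmb5 (difference -1.32), psmc6 (-1.86), psmc3 (-1.28) and psmd1 (-1.62), and the others were psma6a and psmd5. None passed limma's adjusted threshold for the difference, with adjusted p between 0.558 and 0.624 for the first 3 and 0.532 for psmd1. The WT normal diet mean used for all 6 was again that of WT_NOR 1 and WT_NOR 2, with WT_NOR 1 the lower array for each.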

How the results depend on the processing

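No member was called in any of the 10 comparisons under any alternative. The 60 named differences kept their direction in all 804 values computed without an array and, with 1 exception, in 438 under the other alternatives. The exception was psmc4 in HBx(p53-) against WT under normal diet, which turned to 0.22 with the pancreas marker covariate (from -0.61), and the cause was not tested. In the model of 8 cell means, leaving out an array outside the compared groups cannot change a difference. Neither can the intensity trend or the removal of the dimmest genes. The named genes were also chosen by their t in these data, so much of the agreement in direction was fixed in advance. The sample numbers did not pair the arrays (deviations of same-numbered arrays correlated at 0.13, -0.23 and -0.03). The replicate block only separates arrays of the same group, so it cannot change a difference in the model of 8 cell means. The medians there were thus bound to be as without it, for example 0.24 in WT and -0.94 in Src(p53-). They say nothing about pairing.

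Arrays were left out in turn, except the lone normal diet array of HBx(p53-) or Src(p53-) where a comparison needs it. The range for Src(p53-) therefore never omits the array on which its diet difference rests. Medians of the members for the diet difference were between -0.23 and 0.68 in WT, -0.0041 and 0.21 in HBx(p53-), and -1.14 and -0.83 in Src(p53-). They were between -0.95 and -0.19 for HBx,Src(p53-), and -1.1 and -0.55 for the difference between lines. Against WT under normal diet they were between -0.65 and 0.30 for HBx(p53-), 0.25 and 1.16 for Src(p53-), and 0.061 and 1.15 for HBx,Src(p53-). For overfed against normal diet they were -0.47 to -0.12, and for high fat against overfed -0.086 to 0.39. With 14 arrays, 8 groups of 1 and no detection values, differences of the size of those between paired arrays could not be told from array spread.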
